A study of Mus musculus with 5 samples.

Results

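The 10 genes described here encode histone-modifying coactivators, and their H3K36me3 was examined in mTEClo, a subset of the medullary epithelial cells of the mouse thymus. They are the H3K4 methyltransferase genes Kmt2a, Kmt2b, Kmt2c, Kmt2d, Setd1a and Setd1b, their relative Kmt2e, the partner subunit gene Kdm6a, and the acetyltransferase genes Ep300 and Crebbp. They were taken as a named list of 10 genes out of 21887 protein-coding genes, with earlier results of these data known, and described by the peaks, covered share and peak score within each RefSeq gene span on mm10. H3K36me3 is laid down by Setd2, which travels with elongating RNA polymerase II, so the mark is known to build up along the bodies of transcribed genes and to be scarce at their promoters.

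The KMT2 and SETD1 enzymes each work in a COMPASS complex, in which Wdr5, Rbbp5, Ash2l and Dpy30 surround the catalytic subunit and switch on its activity. Setd1a and Setd1b make most trimethylated H3K4 at active promoters, Kmt2a and Kmt2b act at CpG-rich promoters of selected genes, and Kmt2c and Kmt2d make monomethylated H3K4 at enhancers together with the H3K27 demethylase Kdm6a. Ep300 (p300) and Crebbp (CBP) acetylate H3K27 at enhancers and promoters. CBP is a known binding partner of Aire, the regulator of tissue-restricted antigen genes in mature medullary cells, and a PHD finger of Aire binds H3 that is unmethylated at K4.

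The cells were mTEClo, medullary thymic epithelial cells sorted as EpCAM+ UEA-1+ Ly51lo CD80lo from individual wild-type (WT) mice of strain B6, whose age and sex the labels do not give. The groups were 2 H3K36me3 ChIP libraries, series 1 and series 2, made with an Abcam antibody by a method for small cell numbers, and 3 input libraries without antibody, 2 of series 1 and 1 of series 2. Broad peaks had been called for each ChIP library by itself with input as the control, and a mouse is not tied to a library, so the spread between series may be biological or technical. With 1 list per series and no second condition, nothing below has a test over samples, and every comparison is a description of these 2 lists. The lists hold no read counts, so depth is unknown, and where a library shows no peak in a gene the mark was not detectable there, which does not mean absent. A peak in sorted cells in bulk cannot tell a mark on few cells from a weak mark on many.

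Of 10 markers of medullary thymic epithelium, 4 held a peak in either series, against 27.4% of all protein-coding genes. Krt5, the basal keratin, held 1 in each, Trp63 had peaks in series 1 alone, Relb and Tnfrsf11a in series 2 alone, while Cd40, Ccl21a, Foxn1, Epcam, Krt8 and Krt14 were empty. None of 13 thymocyte markers and none of 5 endothelial markers held a peak in either series. The thymocyte markers are mostly short, with a median of 11.3 kb, and in the length class that holds this length (7.39 to 11.7 kb) 11.4% of genes held one. Some are longer, such as Ptprc at 112.9 kb, in whose class 75.8% held one. The endothelial markers have a median of 46.2 kb, and in the class of that length 43.3% held one. Their lack of peaks lies below that share, but counts over so few genes tell little. Of 5 markers each, 1 of cortical epithelium (Ly75, in both series), 2 of B cells (Pax5 and Cd79b, series 2), 2 of myeloid cells (Itgam, series 1, and Csf1r, series 2) and 1 of fibroblasts (Pdgfrb, series 1) held one. The share with a peak in either series was thus the same for the B-cell and myeloid lists as for the medullary list. Median lengths of the medullary, B-cell and myeloid lists were 15.6, 6.70 and 25.6 kb. In the length classes that hold these lengths, 18.96%, 5.62% and 34.7% of genes held a peak in either series. These counts therefore do not set the medullary list apart from the B-cell and myeloid lists. The part of such other cells in the results below was not tested.

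All 10 genes carried H3K36me3 peaks in at least 1 library. There were 30 peaks within the 10 spans, 18 in series 1 and 12 in series 2, and none of the 30 touched any other annotated gene, coding or not. Series 1 marked 8 genes, all but Kmt2b and Setd1a, and series 2 marked 8, all but Setd1b and Crebbp. The 6 genes marked in both were Kmt2a, Kmt2c, Kmt2d, Kmt2e, Kdm6a and Ep300.

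A peak in series 1 was found in 8 of the 10 genes, against 16.3% of all protein-coding genes. In series 2 the 8 genes stood against 19.5%, the 6 genes in both series against 8.42%, and the 10 genes in either series against 27.4%. Long genes hold peaks more often, and these genes run from 20.2 kb (Kmt2b) to 227.1 kb (Kmt2c) with a median of 68.5 kb, against a median of 17.2 kb over all protein-coding genes. Among the 9150 protein-coding genes from 20.2 to 227.1 kb, series 1 marked 27.8%, series 2 marked 32.3%, both marked 14.3% and either 45.7%. When protein-coding genes were cut into 10 equal length classes and the shares of the classes in which the 10 genes lie were averaged, series 1 marked 32.4%, series 2 39.2% and both 19.2%. The counts of the 10 genes lay above each of these shares, which describes a list of 10 chosen with earlier results known and is not a test.

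The share of the gene span under peaks, the covered share, had a median over the 10 genes of 1.30% in series 1 and 0.984% in series 2. The median of the means of both series was 1.05%, against 0% over all protein-coding genes, most of which held no peak. The mean was 1.79% over the 10 genes, against 0.318% over all protein-coding genes and 0.411% over those of 20.2 to 227.1 kb.

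**Figure D1:**
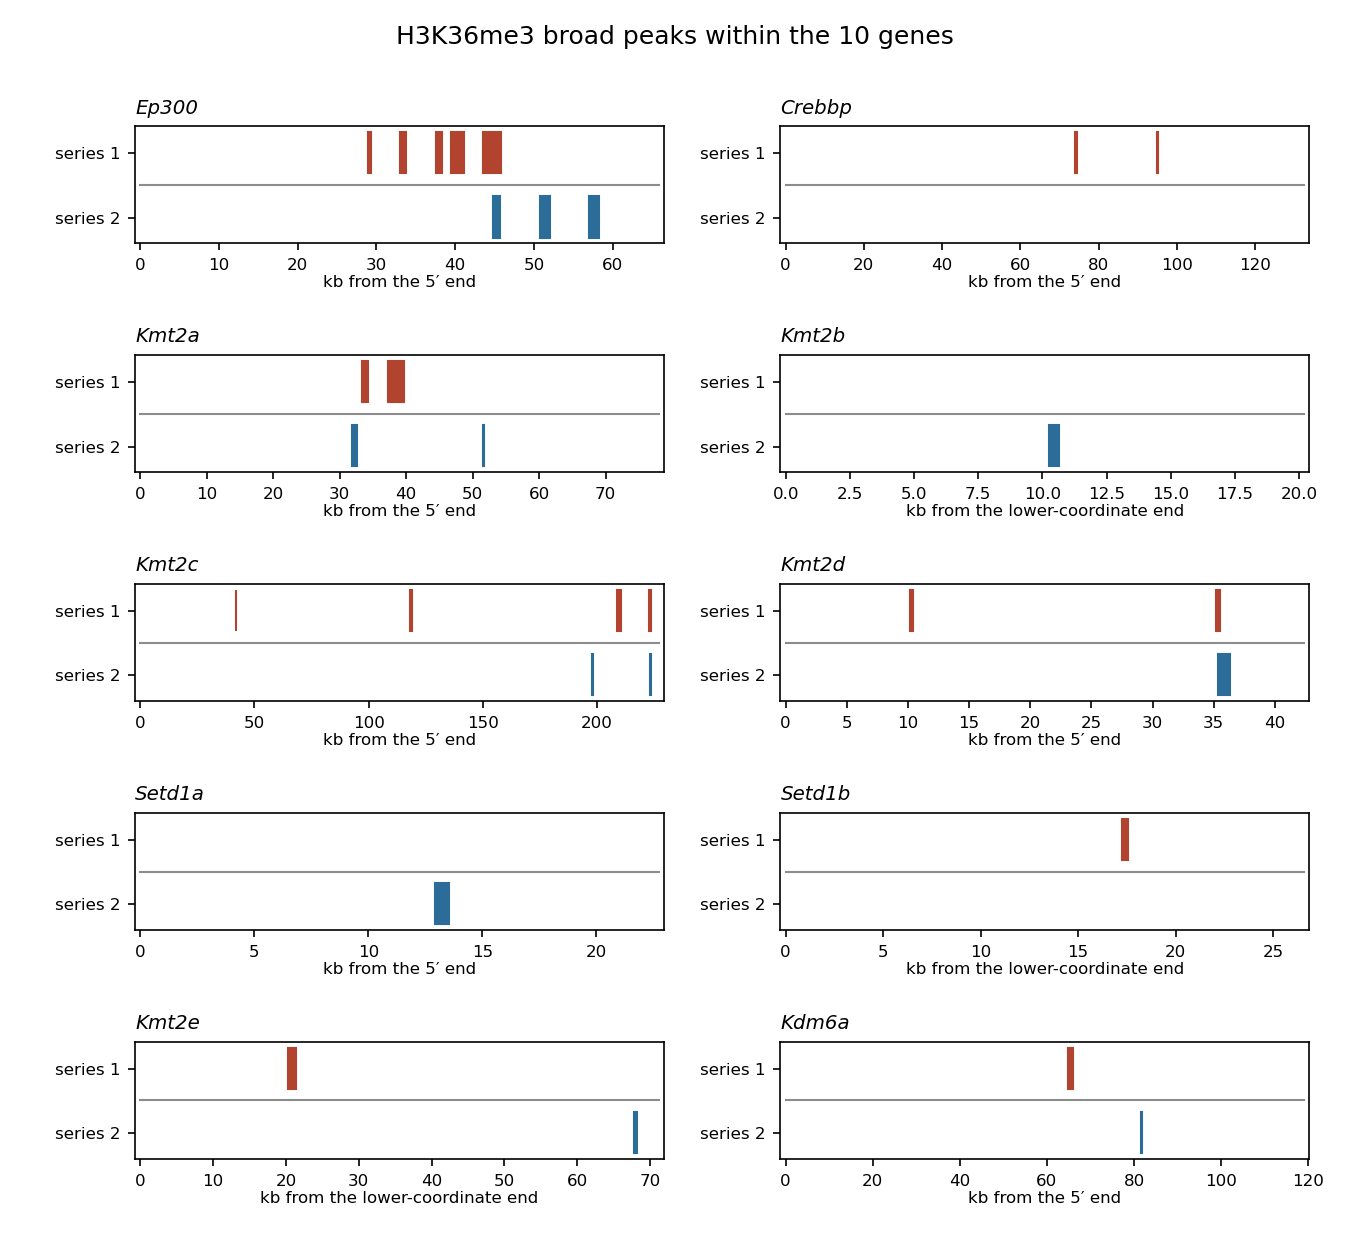
Position of each H3K36me3 broad peak in the 10 genes, 1 panel a gene, in kb from the 5′ end (from the lower-coordinate end for Kmt2b, Kmt2e and Setd1b, whose strand was not given); red blocks are series 1 peaks, blue blocks series 2 peaks, drawn to scale with a thin outline that widens the narrowest. Ep300 shows the densest run, with 5 peaks in series 1 and 3 in series 2, and the only places where red and blue overlap are in Ep300, Kmt2c and Kmt2d.

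Ep300 encodes p300, the acetyltransferase and transcriptional coactivator, and lies on chromosome 15 from 81586209 to 81652077 on the plus strand. It had 5 peaks over 6.10 kb in series 1 and 3 peaks over 3.45 kb in series 2. These covered 9.25% and 5.23% of its span, a mean of 7.24% ± 2.84 (SD, n = 2), the highest of the 10 genes. It is the member that stands farthest from genes of its size.

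Among the 2189 genes of its length class (57.1 to 108.5 kb), Ep300 had the highest covered share in series 1 and the second highest in series 2, while the class averaged 0.365%. Over all 21887 protein-coding genes it ranked 135 in series 1 and 184 in series 2. At least 5 peaks in series 1 were found in 0.306% of genes of 20.2 to 227.1 kb, and at least 3 in series 2 in 3.05%. So the number of peaks in series 1 is rare among genes of this size, and the number in series 2 is less so.

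The Ep300 peaks lay close together. In series 1 the 5 peaks lay within 16.9 kb, with gaps of 1.06 to 3.74 kb, and covered 36.1% of that stretch. In series 2 the 3 peaks lay within 13.4 kb, with gaps of 4.95 to 5.05 kb, and covered 25.6%. Both runs lay in the middle and 3′ part of the gene, from 44.2% to 67.8% of its length by peak midpoint in series 1 and from 68.7% to 87.5% in series 2. The runs met in a peak of 2297 bp in series 1 and a peak of 937 bp in series 2 that lay wholly within it, at 81631003 to 81631939. Their scores were 32 and 19. The scores of the other Ep300 peaks ran from 16 to 40 in series 1 and from 16 to 17 in series 2.

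Crebbp encodes CBP, the paralog of p300 that was named for its binding to the transcription factor CREB. It lies on chromosome 16 from 4081334 to 4213957 on the minus strand and is 132.6 kb long, against 65.9 kb for Ep300. It had 2 peaks in series 1, of 306 bp with a score of 37 and of 524 bp with a score of 16, and none in series 2. They covered 0.626% of the span, and the mean of both series was 0.313% ± 0.443 (SD, n = 2), the lowest of the 10 genes. The peaks lay 20.5 kb apart, at 56.0% and 71.7% of the gene from its 5′ end. Ep300 thus held more peaks than Crebbp in each series on a span of smaller size: per 100 kb there were 7.59 against 1.51 in series 1, and 4.55 in Ep300 against 0 in series 2.

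The start of neither gene carried a peak. The promoter windows, 250 bases before to 50 after the start, are shown for Ep300, Crebbp and Kmt2c because they are the CpG-rich unmarked ends from which the marked bodies run. Capitals mark the dinucleotide CG, which reads the same on both strands and which the CXXC domains of Kmt2a, Kmt2b and the Setd1 partner Cxxc1 bind when it is unmethylated. The sequences are RefSeq's on GRCm38.p6, for Ep300 chr15:81585964-81586263 on the plus strand, for Crebbp chr16:4213355-4213654 on the minus strand and for Kmt2c chr5:25498734-25499033 on the minus strand.
Ep300: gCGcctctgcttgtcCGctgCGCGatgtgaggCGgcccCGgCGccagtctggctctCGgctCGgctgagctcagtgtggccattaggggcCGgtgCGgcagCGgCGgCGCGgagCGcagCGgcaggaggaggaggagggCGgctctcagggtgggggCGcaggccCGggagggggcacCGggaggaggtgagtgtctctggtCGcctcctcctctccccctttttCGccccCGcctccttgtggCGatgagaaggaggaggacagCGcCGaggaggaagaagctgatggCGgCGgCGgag
Crebbp: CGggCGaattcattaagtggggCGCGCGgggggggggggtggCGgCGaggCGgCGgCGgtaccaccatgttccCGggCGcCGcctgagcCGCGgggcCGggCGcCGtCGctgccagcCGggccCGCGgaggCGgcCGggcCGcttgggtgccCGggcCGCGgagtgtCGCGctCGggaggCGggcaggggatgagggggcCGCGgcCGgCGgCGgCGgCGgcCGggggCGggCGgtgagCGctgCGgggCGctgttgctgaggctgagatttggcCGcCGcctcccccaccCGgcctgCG
Kmt2c: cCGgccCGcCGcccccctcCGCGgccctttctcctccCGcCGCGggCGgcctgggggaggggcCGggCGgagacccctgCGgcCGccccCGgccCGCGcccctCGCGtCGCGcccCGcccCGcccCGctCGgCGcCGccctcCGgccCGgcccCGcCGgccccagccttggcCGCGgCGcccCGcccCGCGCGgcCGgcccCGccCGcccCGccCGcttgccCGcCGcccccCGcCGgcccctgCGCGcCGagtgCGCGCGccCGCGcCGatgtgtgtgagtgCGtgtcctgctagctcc

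The Ep300 window holds 30 CG, that of Crebbp 49 and that of Kmt2c 56, against a median of 13 over the 21263 windows of protein-coding genes, of which 95.4% hold at least 1. At least as many CG were found in 15.4% of all windows for the Ep300 count, in 1.28% for Crebbp and in 0.240% for Kmt2c. The windows of Kmt2a, Setd1a, Kmt2d and Kdm6a hold 36, 35, 27 and 21 CG, so all 7 genes with a listed window were above the median. None of the 7 windows held a peak in either series. Such a peak was rare in any gene, with 0.0572% of 17492 genes with a window hit in series 1 and 0.0743% in series 2, so the empty windows say nothing particular about these genes.

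Kmt2a encodes MLL1, the methyltransferase whose translocations drive leukaemia, and lies on chromosome 9 from 44803355 to 44881352 on the minus strand. It had 2 peaks in each series, over 3.43 kb in series 1 and 1.08 kb in series 2. The covered share was 4.39% and 1.39%, a mean of 2.89% ± 2.13 (SD, n = 2), and 20 of the 2189 genes of its length class, itself included, had a mean as high. Kmt2a therefore stood second among the 10 genes, with more coverage in series 1 than in series 2.

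The widest peak of the 10 genes was in Kmt2a, 2505 bp in series 1 with a score of 23, and 99.9% of series 1 peaks were narrower. It lay 38.4 kb from the start site, and the other series 1 peak, of 923 bp with a score of 19, lay 33.8 kb from it. In series 2 a peak of 866 bp with a score of 12 lay 32.2 kb from the start site, and a peak of 217 bp with a score of 17 lay 51.6 kb from it. No bases were shared between the series, and the nearest peaks, those at 33.8 and 32.2 kb, were 747 bp apart.

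Kmt2b, the paralog of Kmt2a that is needed for trimethylated H3K4 at bivalent promoters in embryonic stem cells, lies on chromosome 7 from 30568855 to 30589056. It had no peak in series 1 and 1 peak of 412 bp in series 2 with a score of 12, where the lowest score of either list was 10. It covered 2.04% of the span, and the mean of both was 1.02% ± 1.44 (SD, n = 2). The peak was 10.2 kb from the nearest other coding gene, Zbtb32. Kmt2b was thus marked in 1 library and near the weakest score.

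Kmt2c, also called MLL3, is the longest of the 10 genes and lies on chromosome 5 from 25271795 to 25498855 on the minus strand. It had 4 peaks in series 1, of 388 to 2050 bp with scores of 17 to 36, and 2 in series 2, of 374 and 218 bp with scores of 20 and 12. The covered share was 1.69% and 0.261%, a mean of 0.974% ± 1.01 (SD, n = 2). Coverage of this size is low in itself but high for a gene so long: 70 of the 2189 genes of the longest class, itself included, had a mean as high, and the class averaged 0.206%.

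In series 1 the Kmt2c peaks were spread over 181.6 kb, at 18.5%, 52.1%, 92.3% and 98.3% of the gene from its 5′ end. In series 2 they lay at 87.2% and 98.3%. The peaks at 98.3% shared 357 bp between the series, 95.5% of the shorter peak, at 25275455 to 25275811 near the 3′ end. The scores there were 17 and 20, so the place on which the libraries agree in Kmt2c was not the one of highest score in series 1, 36, which series 2 did not have.

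Kmt2d, also called MLL4 in mice and mutated in Kabuki syndrome in humans, lies on chromosome 15 from 98831669 to 98874077 on the minus strand. It had 2 peaks in series 1, of 338 bp with a score of 44 and of 261 bp with a score of 22, and 1 of 974 bp in series 2 with a score of 28. The covered share was 1.41% and 2.30%, a mean of 1.85% ± 0.625 (SD, n = 2). Of the genes marked in both series, Kmt2d was the only one with a higher covered share in series 2 than in series 1.

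The score of 44 was the highest among the series 1 peaks of the 10 genes, above 90.9% of its list. It shared 221 bp with the series 2 peak, 65.4% of the shorter peak, at 98838526 to 98838746, and the series 2 score of 28 was above 85.2% of its list. The place lies 32.5 kb from the start site by the series 1 midpoint, in the 3′ part of the gene. Kmt2d was thus the gene where the libraries met at high scores in both lists.

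Kdm6a encodes UTX, the H3K27 demethylase that sits in the Kmt2c and Kmt2d complexes, and lies on chromosome X from 18160862 to 18279936 on the plus strand. It had 1 peak of 1153 bp with a score of 17 in series 1 and 1 of 229 bp with a score of 40 in series 2. These covered 0.968% and 0.192% of the span, a mean of 0.580% ± 0.549 (SD, n = 2). The peaks lay at 54.9% and 68.6% of the gene and 15.6 kb apart, so the libraries marked the gene at different places. A further series 2 peak of 1101 bp with a score of 12 lay 1247 bp past its 3′ end, outside every annotated gene, and is not counted.

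Setd1a and Setd1b are the paralogs that carry most promoter H3K4 trimethylation, and each was marked in 1 library, not the same one. Setd1a, on chromosome 7 from 127777389 to 127800122 on the plus strand, had 1 peak of 630 bp with a score of 12 in series 2, which covered 2.77% of its span, and none in series 1. Setd1b, on chromosome 5 from 123142040 to 123168630, had 1 peak of 318 bp with a score of 30 in series 1, which covered 1.20% of its span, and none in series 2. Means were 1.39% ± 1.96 for Setd1a and 0.598% ± 0.846 for Setd1b (SD, n = 2 each). With no peak in 1 of 2 libraries, the SD is always larger than the mean.

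Kmt2e, also called MLL5, has a SET domain for which histone methyltransferase activity is in doubt and a PHD finger that binds trimethylated H3K4. It lies on chromosome 5 from 23433036 to 23504235, with 880 bp of overlap with Srpk2. It had 1 peak of 1122 bp with a score of 41 in series 1 and 1 of 413 bp with a score of 12 in series 2; these were 46352 bp apart. They spanned 1.58% and 0.580% of the gene, a mean of 1.08% ± 0.704 (SD, n = 2). The series 2 peak was 2.13 kb from Srpk2 and outside the overlap.

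**Figure D2:**
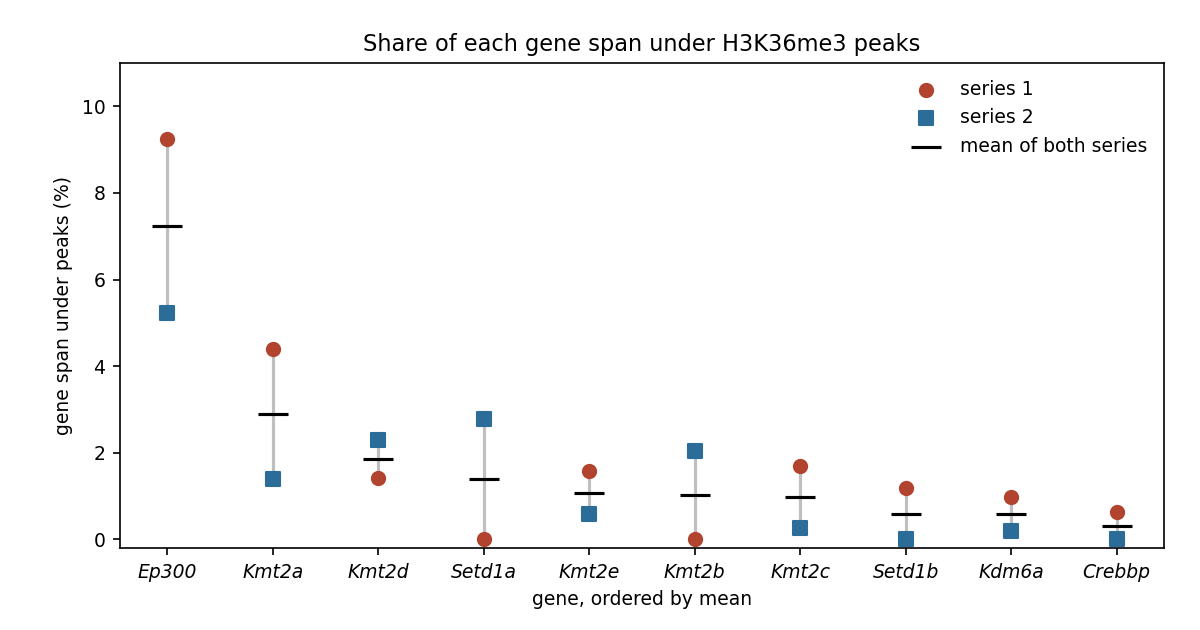
Share of each gene span under H3K36me3 peaks, in percent, for the 10 genes ordered by mean; red circles are series 1, blue squares series 2, black bars the mean of both and grey lines join the 2 libraries. Ep300 lies highest in both series, at 9.25% and 5.23%, and Setd1a, Kmt2b, Setd1b and Crebbp each have a library at 0%.

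By mean covered share the order was Ep300, Kmt2a, Kmt2d, Setd1a, Kmt2e, Kmt2b, Kmt2c, Setd1b, Kdm6a and Crebbp. Ep300 stood 4.35 percentage points above Kmt2a, more than the larger of their SDs, 2.84. Every other pair of neighbours in the order differed by less than the larger of its SDs, so neighbours below Ep300 cannot be ranked. Genes farther apart in the order did separate in the plot of covered share by gene: both libraries of Kmt2a (4.39% and 1.39%) and of Kmt2d (1.41% and 2.30%) lay above both libraries of Setd1b, Kdm6a and Crebbp, whose highest value was 1.20%. This comparison takes no account of gene length. The mean covered share was 0.427% in the length class of Kmt2d and 0.206% in that of Kdm6a and Crebbp, though 0.509% in that of Setd1b. Within their own classes, 93.4% of genes had a lower mean than Kmt2d and 91.0% a lower mean than Kdm6a, so these 2 lay close. Across paralogs, the members with peaks in both series were Kmt2a of Kmt2a and Kmt2b, Ep300 of Ep300 and Crebbp, both of Kmt2c and Kmt2d, and neither of Setd1a and Setd1b. Kmt2b, Setd1a and Setd1b are also the shortest of the 10 genes, at 20.2, 22.7 and 26.6 kb. In their length classes 4.84% and 8.96% of genes were marked in both series, against 19.6% in the class of Kmt2a and Ep300. Crebbp goes the other way, as its class had 34.3%. The part of gene length in these contrasts was not tested.

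**Figure D3:**
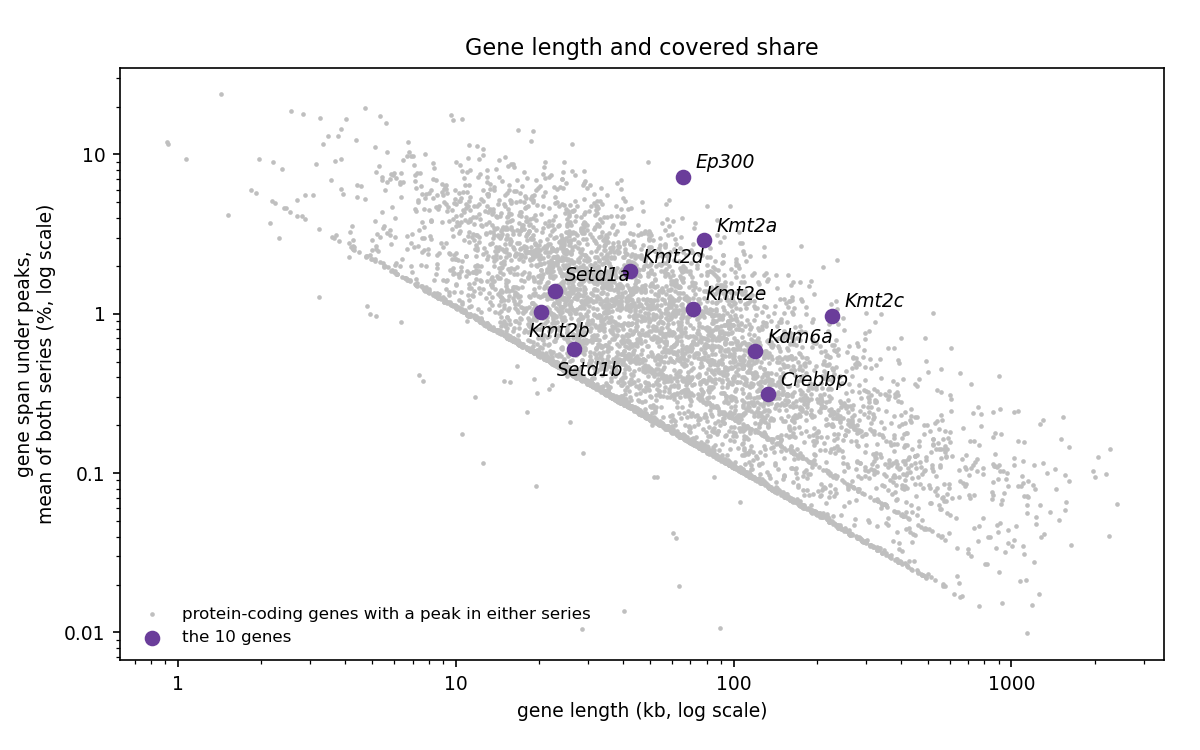
Gene length in kb against the mean share of the gene span under peaks of both series in percent, both on log scales, for protein-coding genes with a peak in either series (grey) and the 10 genes (purple, named); genes with no peak are not drawn. Ep300 lies at the upper edge for its length, Kmt2a and Kmt2c lie high for theirs, and Setd1b lies close to the lower edge.

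The narrowest peaks, 221 bp in series 1 and 216 bp in series 2, bound from below the share that 1 whole peak can cover, as the lower edge in the plot of gene length against covered share shows. The share of genes of the same length class with a lower mean was 99.95% for Ep300, 99.1% for Kmt2a, 96.8% for Kmt2c, 93.4% for Kmt2d and 91.0% for Kdm6a. It was 89.9% for Kmt2e, 87.8% for Setd1a, 84.9% for Kmt2b, 79.4% for Crebbp and 76.2% for Setd1b. In single libraries the standing varied: in series 2 it was 78.8% for Kmt2c and 73.0% for Kdm6a, below the 95.5% of Setd1a and 93.8% of Kmt2b, and in series 1 it was 86.2% for Kmt2d. Ep300 alone stood above 99.9% of its class in both.

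Places shared by both libraries were few. Of the 18 series 1 peaks in the 10 genes, 3 touched a series 2 peak (16.7%), against 6.60% of 5151 series 1 peaks in protein-coding genes. Of the 12 series 2 peaks, 3 touched a series 1 peak (25.0%), against 5.31% of 6397. The 3 places, in Ep300, Kmt2c and Kmt2d, were described above and lay in the 3′ part of each gene, at 67.8% or more of its length. Counts of 3 set only a rough share. Peaks in the 10 genes were also wider than those in protein-coding genes, with medians of 848 against 523 bp in series 1 and 522 against 223 bp in series 2. The shares were not matched for width.

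**Figure D4:**
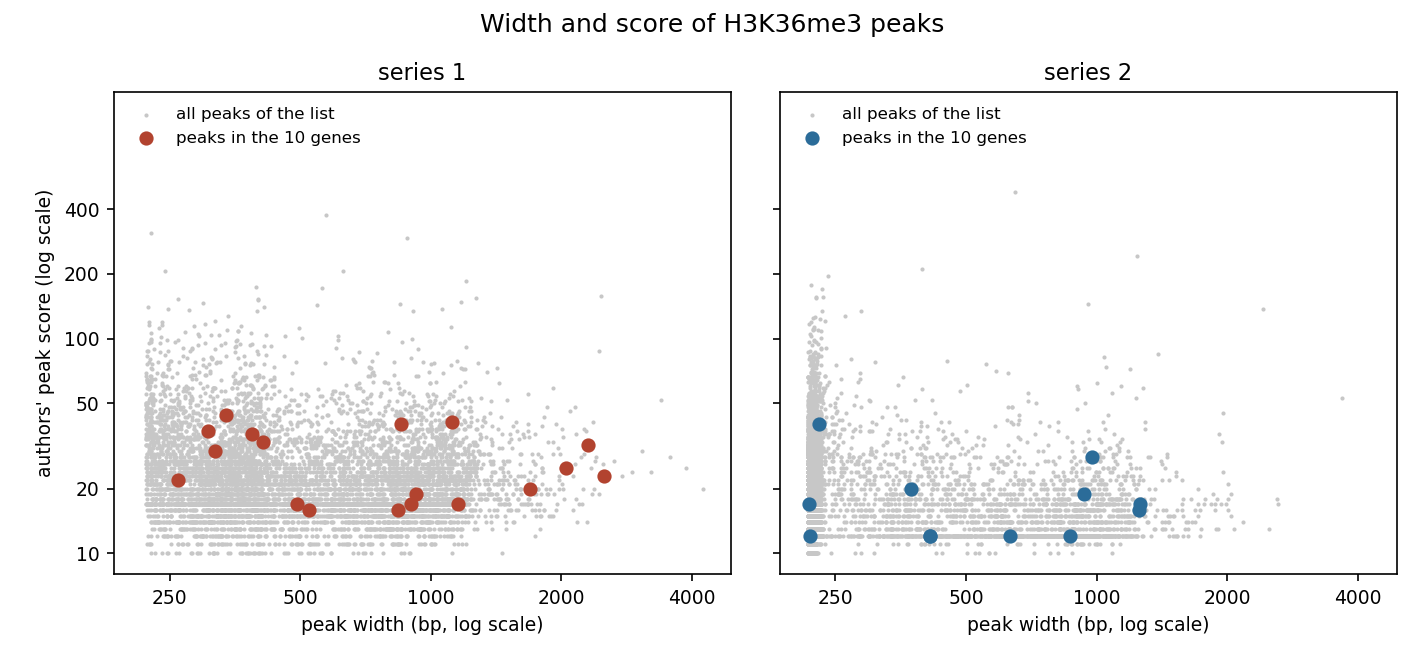
Width in bp against the authors' peak score, both on log scales, for all peaks of a list (grey) and peaks in the 10 genes (red for series 1 on the left, blue for series 2 on the right); the Kmt2b and Kmt2e peaks of series 2 nearly coincide. Peaks in the 10 genes have scores of 16 to 44 in series 1 and 12 to 40 in series 2.

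Peaks in the 10 genes were wide and of ordinary score. The score is the authors' own value for each peak, used here only within its list. In series 1 the median width was 848 bp, against 523 bp over peaks in protein-coding genes, and 6 of the 18 peaks (33.3%) reached 1 kb, against 16.7%. In series 2 the median width was 522 bp, against 223 bp, and 10 of 12 peaks (83.3%) were more than 10 bp wider than the narrowest of the list, against 38.3%. Ep300 held 2 of the 6 series 1 peaks of at least 1 kb and both of those in series 2.

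The median score was 24 in series 1, against 21 over peaks in protein-coding genes, and 16.5 in series 2, against 16. None of the 30 peaks reached a score of 50, which 334 of 5151 series 1 peaks and 168 of 6397 series 2 peaks in protein-coding genes did. Over all protein-coding genes, series 1 gave such a peak to 1.48%, series 2 to 0.763% and both to 0.0868%. In series 2, 5 of the 12 peaks (41.7%) had a score of 12 or less, against 31.7%. These were 1 each in Kmt2a, Kmt2b, Kmt2c, Kmt2e and Setd1a, and they are the only series 2 peaks of Kmt2b, Kmt2e and Setd1a. When peaks scoring below 20 were left out, series 1 still marked 7 genes, series 2 marked 3 (Kmt2c, Kmt2d and Kdm6a) and both marked 2 (Kmt2c and Kmt2d). The shares over all protein-coding genes, not matched for length, were then 10.9%, 9.01% and 3.30%. Ep300 then kept only series 1 peaks, since its highest series 2 score was 19.

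**Figure D5:**
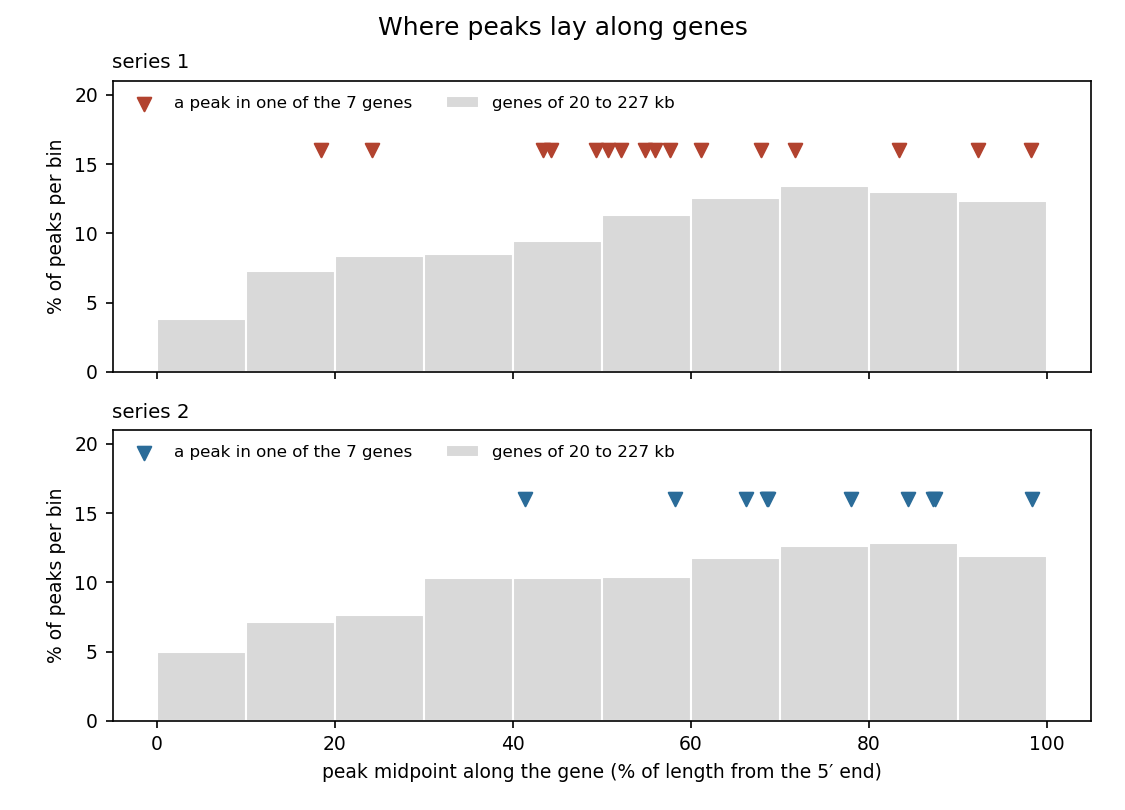
Midpoint of each peak along the gene, in percent of length from the 5′ end, for the 7 genes with a known strand (triangles, series 1 above in red, series 2 below in blue) and, as grey bars, the percent of peaks per bin over protein-coding genes of 20.2 to 227.1 kb with a known strand. Triangles lie at 18.5% or beyond in series 1 and 41.3% or beyond in series 2.

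Strand was known for 7 of the 10 genes, which held 26 of the 30 peaks. No peak lay nearer to a start site than the 7.39 kb of the Kmt2d peak of 261 bp, and the farthest, in Kmt2c, lay 223.2 kb from it. In series 1, peak midpoints fell 2, 3, 8 and 3 times into 4 equal parts of the gene, counted from the 5′ end. Over protein-coding genes of 20.2 to 227.1 kb the shares were 15.3%, 22.0%, 30.7% and 31.9%.

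In series 2 they fell 0, 1, 4 and 5 times into the same parts, against 15.9%, 24.5%, 28.3% and 31.2%. Of the 26 peaks, 24 lay beyond 40% of the gene length, and the exceptions were 1 series 1 peak each in Kmt2c and Kmt2d. Peaks of the 7 genes were thus few in the 5′ part, as in the lists as a whole, where the grey bars in the plot of midpoints are lowest. In series 1 they were most frequent in the third of the 4 parts, and the last part held 3 of 16 (18.8%), against 31.9%.

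Both series marked 60.0% of the 10 genes. On 7 lists of partner, paralogous, opposing and related genes they marked 9 of 42 (21.4%), with a median length of 43.7 kb. Those 9 were 3 H3K4 demethylases, 1 other H3K4 methyltransferase and 5 other acetyltransferases. None of the COMPASS subunits or p300/CBP partners on the lists was marked in both series. The share over all protein-coding genes was 8.42%, and 14.3% over those of 20.2 to 227.1 kb. Series 1 marked 17 of the 42 and series 2 also 17. Of the 4 shared COMPASS core subunits, series 1 marked 3 and series 2 marked none, against 16.3% and 19.5% of all protein-coding genes. Rbbp5 had 8.12% of its span covered in series 1, Ash2l 4.17% and Dpy30 0.903%, and Wdr5, the WD40 scaffold, had no peak. So no core subunit gene was marked in both libraries.

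Of 10 genes for subunits of particular COMPASS complexes, 2 were marked in series 1, 3 in series 2 and none in both, near the 16.3%, 19.5% and 8.42% of all protein-coding genes. Cxxc1, the CpG-binding subunit of the Setd1 complexes, had 16.9% of its short span covered in series 1. Bod1l had 3.59% covered in series 1, and Paxip1, of the Kmt2c and Kmt2d complexes, 1.85% in series 2. Men1, the menin partner of Kmt2a and Kmt2b, was among the 5 without a peak.

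Among the enzymes that remove H3K4 methylation, 3 of 6 were marked in both series, against 8.42% of all protein-coding genes. Kdm5a had 7 peaks in series 1 and 4 in series 2, covering 7.09% and 2.45%, a mean of 4.77% ± 3.28 (SD, n = 2). Kdm5b had 7.16% and 0.303% covered and Kdm1b 2.35% and 0.542%. Kdm5a thus lay between Ep300 and Kmt2a in mean covered share, as did Kdm5b (3.73%) and the core subunit gene Rbbp5 (4.06%, from series 1 alone). Cxxc1 (8.45%, from series 1 alone) lay above Ep300. Of the paralogs of Kdm6a, Kdm6b had 1 peak in series 2, over 1.00% of its span, and Uty none. Uty is on chromosome Y, as is the unmarked demethylase gene Kdm5d, so without the sex of the mice their lack of a peak cannot be read. Of 3 other H3K4 methyltransferase genes, Smyd3 was marked in both series, over 0.287% and 0.0394% of its 566.1 kb, Setd7 in series 2 and Prdm9 in neither.

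Of 10 other acetyltransferase genes, series 1 marked 7, series 2 marked 6 and both marked 5, against 16.3%, 19.5% and 8.42% of all protein-coding genes. Their median length was 66.5 kb, and in the length class that holds it the shares were 33.3%, 40.9% and 19.6%. Kat7, which acetylates H3K14, had the highest mean of those in both, 2.41% ± 1.77 (SD, n = 2), followed by Kat6a at 1.84% ± 1.24. Kat2b, Ncoa1 and Kat6b were also marked in both, with means of 0.636% ± 0.315, 0.590% ± 0.547 and 0.292% ± 0.0910 (SD, n = 2 each). Ep300 lay above each of these and Crebbp below all but Kat6b. Of 7 genes whose products bind p300/CBP or bring them to promoters, Crtc2 held a peak in series 1 over 2.45% of its span, Creb1 in series 2 over 1.62%, and the 5 others had none. That is 28.6% in either series, near the 27.4% of all protein-coding genes, and the median length of the 7 was 10.3 kb.

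The protein-coding genes nearest to Ep300 in covered share over the 2 libraries, by the sum of absolute differences, were Ik, Gpi1 and Cdc16. Ik had 8.77% and 4.71% in series 1 and 2, a summed difference of 1.00 percentage points, Gpi1 10.2% and 5.67% (1.36) and Cdc16 10.6% and 5.01% (1.54). They are 13.0, 29.0 and 24.3 kb long, against 65.9 kb for Ep300, and each reached its share with 2 or 3 peaks a series.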

How the data were processed

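H3K36me3 ChIP libraries of sorted mTEClo were analysed from 2 deposited broad-peak lists, with no pooling of libraries. The submitters' processing notes name Bowtie2, SAMtools, MACS2 and build mm10, with no versions or settings. Per the peak names in the files, series 1 was called against 2 inputs together and series 2 against 1. The authors deposited a whole-number score per peak, whose meaning is not stated; the lists carry no counts, so depth is unknown. Values of the input libraries were not analysed here.

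The spans, 21887 in number and limited to coding genes of the autosomes, X and Y, came from RefSeq (GRCm38.p6, the chromosomes of mm10), and strand, where given, from its promoter windows. A gene was called marked with at least 1 bp of a peak. Genes were put in 10 length classes. The members and lists were chosen with earlier results of these data known. Named genes were all 10 members, list genes marked in both series or, failing that, up to 3 best covered ones, and the 3 genes nearest to the best covered member; others are named because a small count called for it, after their values were seen. All 90 list genes matched. No test was run. Alternatives were stricter scores, wider peaks, longer spans, peak midpoints, peaks of 1 gene only, other overlaps and each library alone. Coverage code was checked on 200 made-up genes. Python 3.11.15, numpy 2.4.6, pandas 2.3.3 and matplotlib 3.10.9 were used.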

Additional observations from a re-analysis of the deposited data

How the results depend on the processing

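The results rest on peaks of modest score. At a minimum score of 20, series 2 marked 3 genes and both series 2, the median covered share was 0.609%, and 1 series 1 peak in the 10 genes met a series 2 peak, while 7 genes stayed marked in series 1 and 8 in either. The mean covered share of Ep300 was then 3.99%. At a minimum score of 50, 0 of the 10 genes were marked in series 1, series 2, both or either, the median was 0% and 0 peaks met, since no peak of these genes scores so high. Without replicate 1 or without replicate 2, which leaves the other library alone, 8 genes were marked, and the median covered share ran from 0.984% to 1.30%. With peaks more than 10 bp wider than the narrowest, spans extended by 2 kb, peak midpoints, or peaks of 1 coding gene only, the counts of marked genes were the same, with medians of 0.989% to 1.05%. With at least 50% of the shorter peak shared the places that met were 3, and with peaks at most 1 kb apart 4. No paired analysis was possible because only the ChIP group has files. The number of libraries, 2, limits precision, and depth is unknown.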
